A study of Homo sapiens with 36 samples.

Results

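The genes that encode the pore-forming subunits of potassium channels were followed through the conversion of human stem cells into neurons, in cells labelled for 3 RAI1 genotypes. Members were all rows of the deposited table whose gene symbol begins with KCN, continues with A, B, C, D, F, G, H, J, K, MA, N, Q, S, T, U or V and ends in a number, which gave 79 of 62710 genes. No measured value entered this choice. Counts in at least 1 comparison were high enough for a test in 69 of the 79. The other 10 (KCNA10, KCNJ1, KCNJ15, KCNJ18, KCNK4, KCNK13, KCNK16, KCNK18, KCNU1 and KCNV1) were tested in none, and 5 of these (KCNA10, KCNJ18, KCNK16, KCNK18 and KCNU1) had 3 or fewer counts in every library.

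The cells were H9, an established human embryonic stem cell line, in which doxycycline switches on NGN2, a transcription factor that drives stem cells to become neurons (iNeurons). Cells labelled WT, RAI1 Het (here HET) and RAI1 Knockout (here KO) were taken at day 0, day 3 or day 7 of induction in a Neurobasal-A medium that held B27, CultureOne, GDNF, GlutaMAX and NT3, with 4 libraries in each of the 9 groups and 36 in all. RAI1 encodes a chromatin-associated regulator of transcription, and loss of 1 copy causes Smith-Magenis syndrome. All groups share the line of origin and the NGN2 system, and the labels call the replicates biological without naming separate inductions or the number of edited clones behind HET and KO, so the tests measure the spread between these libraries. Genotype names below are those of the labels.

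Library totals ran from 23948079 to 56678796 counts. RAI1 itself was not lower in the libraries labelled HET or KO: 4 WT libraries at day 7 averaged 52.4 ± 15.3 CPM (SD), those of HET 73.3 ± 15.7 and those of KO 84.7 ± 14.2, and KO exceeded WT there by 0.69 log2 (adjusted p 0.0296, SE 0.22). Counts per gene therefore do not check the genotypes, and all directions follow the labels. A group of 5 abundant noncoding RNAs (RMRP, RN7SK, RN7SL1, RN7SL2 and RPPH1, called small structural RNAs below) took 2.84% to 27.5% of a library, with both extremes in HET at day 7. Levels are therefore given between libraries as CPM, counts relative to a library size scaled by TMM (a trimmed mean of log ratios), and TPM, which also corrects for transcript length, is used only to order genes within a group. Pluripotency markers (8 genes, POU5F1 and NANOG among them) summed to 2404 to 5433 CPM at day 0 and 69.6 to 354.7 CPM at day 7. Neuronal markers (12 genes, such as TUBB3, MAP2 and STMN2) summed to 288.7 to 791.8 CPM at day 0 and 7236 to 24770 CPM at day 7. Endoderm markers (SOX17, FOXA2, AFP and APOA1) reached at most 0.233 CPM in sum from day 3 on.

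Potassium channels let potassium ions leave, or in some cases enter, a cell along their gradient, and so set the resting potential and end action potentials. Voltage-gated subunits assemble as tetramers: Shaker, Shab, Shaw and Shal channels (KCNA, KCNB, KCNC, KCND) carry delayed rectifier and A-type currents, KCNQ channels carry the slow M-current, and KCNH channels include EAG, ERG and ELK types. KCNF, KCNG, KCNS and KCNV subunits are electrically silent and modify Shab channels. Inward rectifiers (KCNJ) and two-pore channels (KCNK) hold the resting potential, and KCNMA1, KCNN and KCNT channels open on intracellular calcium or sodium. As neurons mature, they usually add voltage-gated channels that shape their firing.

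Sequence just upstream of the start site is shown for 4 members that passed in KO at day 3, chosen after their values were seen: KCNA2, KCNC2 and KCNK10 were higher and KCNK5 was lower. NGN2 is a basic helix-loop-helix factor whose family binds E-boxes, so copies of the E-box CANNTG are in capitals. Each window holds the 250 bases before the start site of the RefSeq annotation on GRCh38.p14, on the minus strand in all 4 cases (chr1:110631441-110631690, chr12:75209840-75210089, chr14:88326913-88327162 and chr6:39229476-39229725 in the order printed). GENCODE 29 places the genes themselves at chr1:110519837-110631474, chr12:75040077-75209868, chr14:88180103-88326907 and chr6:39188973-39229450 on GRCh38, so the KCNA2 and KCNC2 windows overlap the annotated first base of the gene.
KCNA2: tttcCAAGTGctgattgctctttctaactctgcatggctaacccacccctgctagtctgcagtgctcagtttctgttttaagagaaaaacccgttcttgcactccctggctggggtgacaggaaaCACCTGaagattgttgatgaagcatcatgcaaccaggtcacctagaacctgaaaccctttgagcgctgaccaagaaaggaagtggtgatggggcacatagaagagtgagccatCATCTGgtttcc
KCNC2: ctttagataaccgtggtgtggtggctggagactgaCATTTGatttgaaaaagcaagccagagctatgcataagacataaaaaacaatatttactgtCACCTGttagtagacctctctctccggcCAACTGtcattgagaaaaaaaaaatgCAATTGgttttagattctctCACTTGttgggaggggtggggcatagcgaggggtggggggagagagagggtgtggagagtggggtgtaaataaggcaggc
KCNK10: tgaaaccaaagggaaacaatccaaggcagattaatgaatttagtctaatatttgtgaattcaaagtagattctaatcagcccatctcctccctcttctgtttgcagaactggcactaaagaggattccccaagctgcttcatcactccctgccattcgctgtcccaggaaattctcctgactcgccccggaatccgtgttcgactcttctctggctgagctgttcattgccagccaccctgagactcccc
KCNK5: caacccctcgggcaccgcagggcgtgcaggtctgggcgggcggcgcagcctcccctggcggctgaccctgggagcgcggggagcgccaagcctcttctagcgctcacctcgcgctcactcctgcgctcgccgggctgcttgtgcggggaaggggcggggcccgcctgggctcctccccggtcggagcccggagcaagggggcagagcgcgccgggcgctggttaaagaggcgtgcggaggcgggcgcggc
Counted with any overlap and reading both strands, the KCNA2 window held 3 E-boxes, one of them CATCTG, and the KCNC2 window held 5. Those of KCNK10 and KCNK5 held none. G and C made up 48.8%, 46.0%, 48.0% and 77.2% of these windows in the order printed. Of the 79 members, 58 had a window in the RefSeq table, and 37 of them (63.8%) held at least 1 CANNTG, against 62.2% of all 27305 windows. The form CAGATG or CATCTG was in 17.2% of member windows and 12.2% of all, and CAGCTG in 19.0% and 13.8%. These are matches of letters only.

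Levels in WT, corrected for length, changed their order between days. At day 0 the two-pore leak channel KCNK5 (5.31 ± 0.431 TPM, SD, n = 4) and the silent subunit KCNG1 (5.04 ± 0.293 TPM) had overlapping spreads, above KCNT2 (2.65 ± 0.628), a sodium-activated channel, and KCNN2 (1.99 ± 0.158), a small-conductance calcium-activated channel. At day 3 KCNH1 (4.05 ± 1.89 TPM), KCNC1 (3.71 ± 2.08), KCNJ6 (3.33 ± 1.27) and KCNF1 (3.17 ± 1.70) came in this order, and none of these neighbours differed beyond their spread. At day 7 the order was KCNH7 (5.76 ± 1.26 TPM), KCNH2 (4.47 ± 1.65), KCNT2 (3.48 ± 0.877) and KCNN1 (3.20 ± 1.24), again with overlapping spreads.

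**Figure D1:**
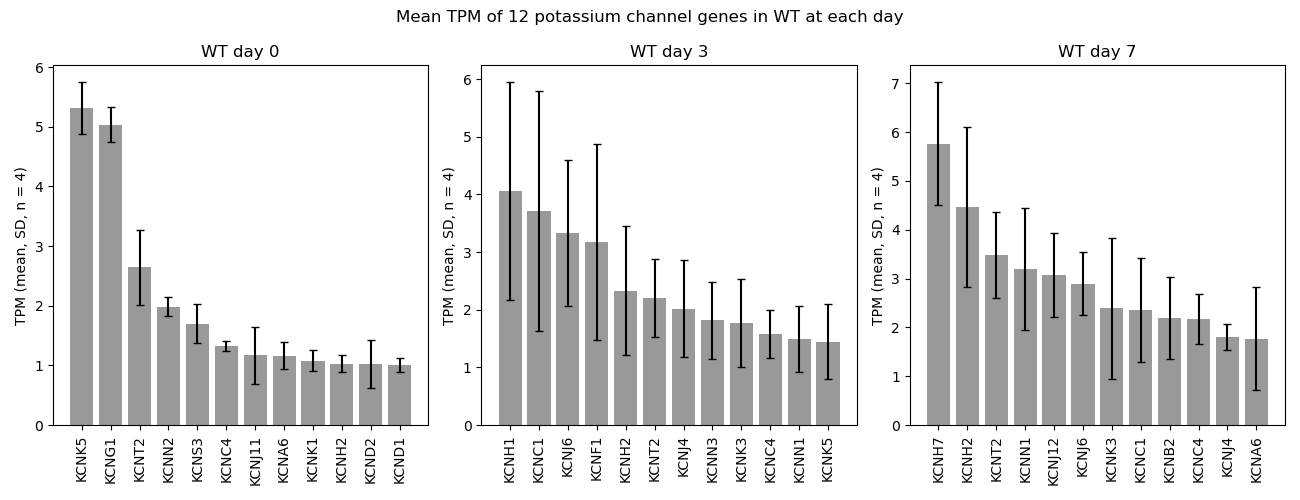
Mean TPM (vertical axis, own scale in each panel) of 12 members in WT at days 0, 3 and 7, with bars for the mean and whiskers for 1 SD over 4 libraries. KCNK5 and KCNG1 lead the panel of day 0, KCNH1 that of day 3 and KCNH7 that of day 7.

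In WT, the channel repertoire turned over between days 0 and 3. Of 60 members tested, 46 changed, 31 upward and 15 downward (edgeR, adjusted p under 0.05). Of all 22268 genes tested, 60.0% changed, 31.2% upward and 28.7% downward. The median difference was 0.91 log2 over the members and 0.07 over all genes. KCNH genes rose in 6 of 7 tested cases, Shaw genes in 3 of 4 and inward rectifiers in 6 of 11, while 2 of 3 Shal genes fell. Two-pore genes split into 4 rises and 5 falls of 9, and silent subunit genes into 2 rises and 4 falls of 8. KCNJ6 (GIRK2), a G protein-gated inward rectifier, read 0.852, 1.70, 0.401 and 0.271 CPM in the 4 libraries at day 0 and 66.6, 87.4, 85.3 and 37.3 at day 3, without overlap. That was a rise of 6.38 log2 (adjusted p 5.19e-08, SE 0.47). Its partner KCNJ3 (GIRK1) had 3 counts in the 4 libraries at day 0 together and 303 at day 3, a ratio per library size of 81.2 with a 95% exact counting interval of 27.5 to 396. KCNH1, an EAG channel, rose by 5.75 log2 (adjusted p 9.30e-08, SE 0.45) and KCNK3, a two-pore leak channel sensitive to acid, by 5.25 log2 (adjusted p 5.42e-07, SE 0.49). The ELK channel KCNH3 rose by 4.58 log2 (adjusted p 6.38e-08, SE 0.34). KCNT1, a sodium-activated channel, rose by 2.14 log2 (adjusted p 2.48e-04, SE 0.39), and KCNT2 by 0.66 log2 (adjusted p 0.00224, SE 0.16), although KCNT2 read -0.19 on log2(TPM + 1). KCNC2 was listed at 0 in all 4 day 0 libraries and at 0.111 to 0.239 CPM at day 3, which made it at least 1.96-fold higher against a floor of 3 counts per library.

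Between days 0 and 3, 15 of 60 members fell, where 28.7% of all genes tested fell. Among those with a mean of at least 1 CPM in the higher group, KCND2 and KCNK1 had the largest falls. KCND2, an A-type channel, read 6.10, 3.62, 5.37 and 6.19 CPM at day 0 and 0, 0.0675, 0.0478 and 0.132 at day 3. Every day 3 library was below every day 0 library, and the difference was -6.46 log2 (adjusted p 9.34e-08, SE 0.50). The two-pore channel KCNK1 fell from 2.54 ± 0.561 to 0.0563 ± 0.0858 CPM (SD, n = 4), a change of -5.54 log2. Silent subunits fell as well: KCNG3 with a difference of -4.84 log2 (adjusted p 3.01e-07, SE 0.42) and KCNG1 with a difference of -2.49 log2 (adjusted p 5.77e-04, SE 0.50). KCNN2 fell by 1.96 log2 (adjusted p 6.70e-05, SE 0.30). The split between rises and falls depended on the scale: on deposited TPM with limma, 15 members rose and 16 fell, and the median of all genes moved to -0.36 log2.

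Between days 3 and 7 in WT, 42 of 60 members changed, 33 upward and 9 downward, where 46.2% of all genes changed (23.3% upward, 22.9% downward). All 3 Shal genes and 6 of 7 KCNH genes rose, while two-pore genes fell more often than they rose (4 against 2 of 9). KCNC2, a fast Shaw-type delayed rectifier of fast-spiking neurons, read 0.111, 0.180, 0.239 and 0.132 CPM at day 3 and 3.36, 10.1, 13.5 and 18.1 at day 7, a rise of 6.08 log2 (adjusted p 3.97e-06, SE 0.55). KCNH7, an ERG channel, went from 2.41, 3.22, 2.90 and 1.79 to 77.5, 52.8, 57.2 and 52.4 CPM, with no overlap between days, and rose by 4.54 log2 (adjusted p 6.21e-08, SE 0.31). KCND3, an A-type channel, rose by 4.13 log2 (adjusted p 5.14e-06, SE 0.46) and KCNA2, a Shaker channel of axons, by 3.83 log2 (adjusted p 8.76e-06, SE 0.45). KCNK10 (TREK2), a two-pore channel opened by stretch and lipids, returned from 0.137 ± 0.0998 to 4.26 ± 1.91 CPM, a rise of 4.89 log2 after a change of -3.58 log2 in the first 3 days. KCNH4, an ELK channel, rose by 5.24 log2 (adjusted p 2.99e-05, SE 0.71), from 2, 0, 0 and 5 counts per library to 39, 96, 78 and 30. The size of this rise is uncertain, since it rests on day 3 counts near the floor. It ran from 4.82 to 6.55 log2 when 1 library was left out. KCNF1 fell by 2.79 log2 (adjusted p 6.61e-04, SE 0.54) after having risen by 3.77 log2, and KCNK5 fell in both steps, with -0.92 and -2.19 log2. The two-pore genes KCNK15 and KCNK6 changed by -2.01 and -1.63 log2 and the inward rectifier KCNJ10 with a difference of -1.88 log2. On TPM with limma, 15 members rose and 7 fell.

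**Figure D2:**
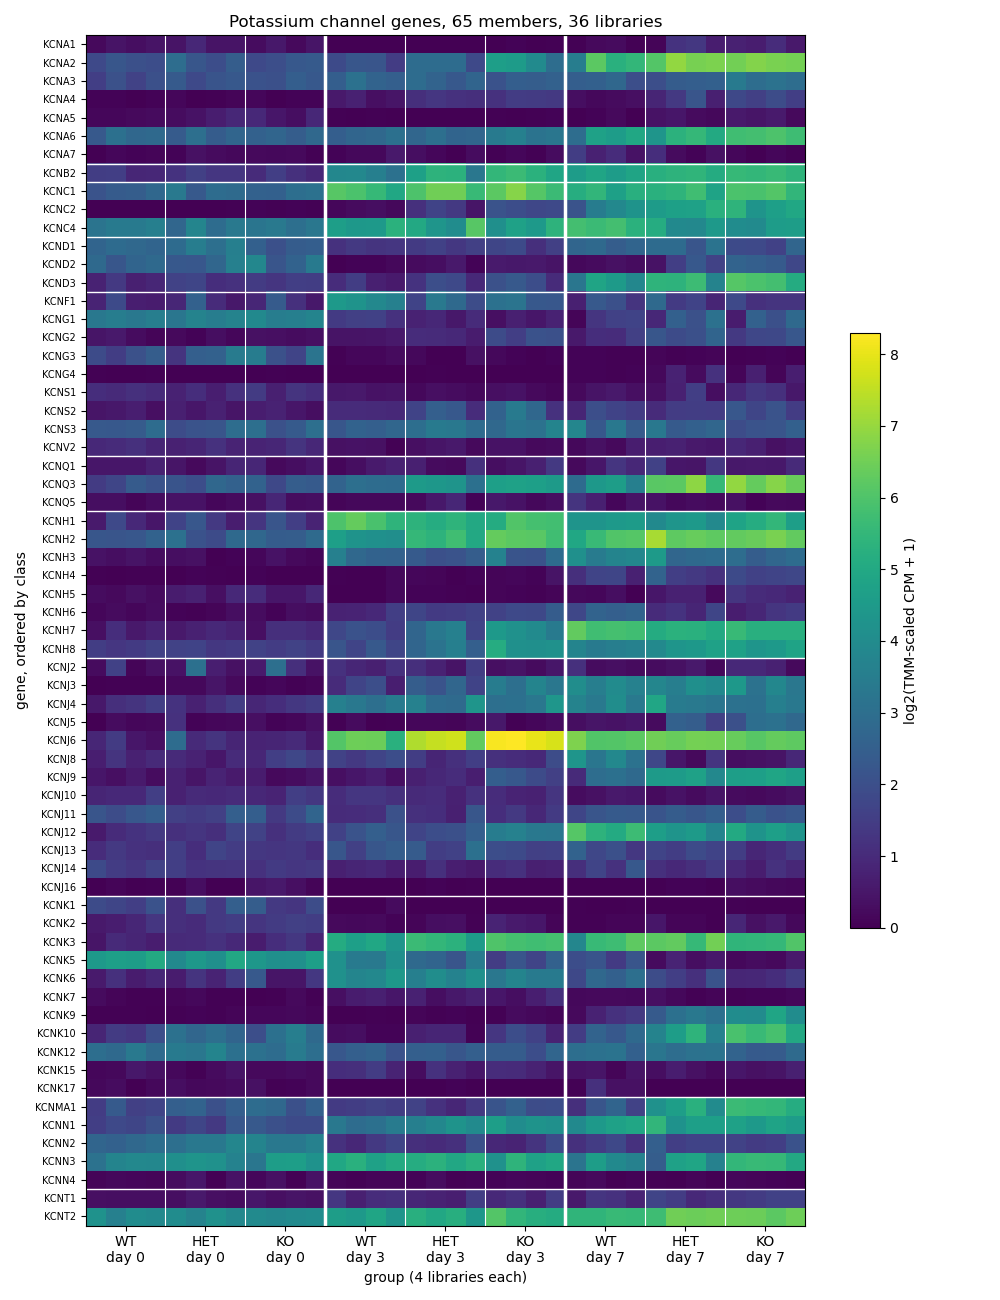
Colour gives log2(CPM + 1) of 65 members (rows, ordered by class) in 36 libraries (columns, in 9 groups of 4 by day and genotype). Rows that brighten after day 0, such as KCNJ6, lie beside rows such as KCNC2 and KCNH7 that brighten from day to day. KCNH7 is brightest in WT at day 7. Rows such as KCNK5 and KCNK1 are brighter at day 0 than at day 7 in every genotype.

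At day 0, before induction, few members differed between genotypes. Between KO and WT, 2 of 55 tested members were higher and none lower, where 2.08% of all genes were called. An unadjusted edgeR p under 0.05 was reached by 12 of the 55 and by 2544 of all 20437 genes. KCNK10 read 0.797, 1.73, 1.46 and 2.94 CPM in WT, 7.58, 5.71, 7.25 and 5.44 in HET and 2.97, 7.33, 10.6 and 6.14 in KO. Every HET and KO library was above every WT library. KO differed from WT by 2.00 log2 (adjusted p 0.0194, SE 0.40) and HET by 1.94 log2 (adjusted p 0.0273, SE 0.40). KCNK10 was the only member called in HET against WT (1 of 55, against 1.63% of all genes, 1.22% higher). KCNN2 was higher in KO by 0.86 log2 (adjusted p 0.0262, SE 0.18), with 5.58, 4.94, 5.94 and 6.94 CPM in WT and 12.4, 8.98, 8.99 and 11.4 in KO. Its difference in HET of 0.73 log2 (adjusted p 0.0768) did not pass. Replicate numbers paired KO with WT at this day, and with the number as a block 5 members were called. The share of all genes called with the block is not given here. The 3 gained were KCNK2, by 1.14 log2 (adjusted p 0.0234 with the block), KCNMA1, by 1.05 log2 (adjusted p 0.0200 with the block), and KCNJ2, by 1.85 log2 (adjusted p 0.0474 with the block), all chosen after their values were seen. Without the block their adjusted p in edgeR was 0.1355, 0.110 and 0.656. KCNJ2 had 7, 87, 3 and 10 counts in WT and 19, 213, 36 and 11 in KO, so replicate 2 was far the highest in both. The KCNK10 call was lost in KO without KO replicate 3 or WT replicate 1, 2 or 3 (adjusted p up to 0.0822) and in HET without HET replicate 1 or 3 or WT replicate 1, 2 or 3 (adjusted p up to 0.112), and that of KCNN2 without KO replicate 1 or 4 or WT replicate 1, 2 or 3 (adjusted p up to 0.0887). Both comparisons share the WT libraries. Neuronal markers did not pass at this day (0 of 12 called by edgeR in either genotype). Astrocyte markers summed to 2.40 to 4.03 CPM in WT, 4.95 to 9.33 in HET and 6.45 to 8.74 in KO, with 1 of 4 tested called higher in each mutant, and their part in the channel differences was not tested. KO and HET differed at 1 of 55 members (0.856% of all genes): KCND1, an A-type channel, was lower in KO with a difference of -1.06 log2 (adjusted p 0.0145, SE 0.19), a call lost without HET replicate 2 or 4 (adjusted p up to 0.0531).

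At day 3, many channel genes were higher in KO than in WT. Of 56 members tested, 25 were higher and 5 lower, 30 in all or 53.6%, where 21.6% of all 21563 genes were called (12.6% higher, 8.93% lower). The median difference was 0.75 log2 over members and -0.05 over all genes. With the replicate number as a block 33 members were called, and the share of all genes called with the block is not given here. Neuronal markers summed to 5918 to 9702 CPM in KO, 2303 to 5324 in HET and 1503 to 1869 in WT, with 11 of 12 called higher in KO. Proliferation markers (8 genes, such as MKI67) summed to 483.6 to 1298 CPM in KO and 1271 to 2502 in WT, with 5 of 8 called lower. Markers of peripheral or sensory neurons (6 genes, such as PRPH and ISL1) summed to 361.6 to 727.1 CPM in KO and 78.2 to 116.3 in WT, with 6 of 6 called higher. Astrocyte markers (5 genes) summed to 150.9 to 291.3 CPM in KO and 14.7 to 37.8 in WT, with AQP4 and S100B at the floor of 3 counts in both, and of 3 tested 1 was called higher and 1 lower. The part of these markers in the results on channels was not tested, and in bulk RNA more cells of a type and more RNA per cell cannot be told apart.

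Among KCNQ genes, KCNQ3, which encodes an M-current subunit that restrains repetitive firing, was higher in both mutants at day 3. It read 5.18, 7.09, 6.60 and 6.47 CPM in WT, 21.9, 19.8, 18.6 and 7.36 in HET and 24.9, 25.9, 24.5 and 22.1 in KO. Here both genotypes lay above every WT library, KO by 1.92 log2 (adjusted p 2.74e-04, SE 0.27) and HET by 1.43 log2 (adjusted p 0.00859, SE 0.27). HET replicate 4 was the lowest of its group.

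Among KCNH genes, 4 of 6 tested were higher in KO and none was lower. KCNH2, the ERG channel best known from cardiac repolarisation, read 24.6, 18.2, 16.8 and 16.3 CPM in WT, 44.5, 40.5, 52.3 and 31.2 in HET and 80.4, 73.2, 71.4 and 53.1 in KO. The 3 genotypes did not overlap, with differences from WT of 1.85 log2 (adjusted p 3.74e-05, SE 0.20) in KO and 1.16 log2 (adjusted p 0.00402, SE 0.19) in HET. KCNH7 read 21.4, 17.2, 14.5 and 9.54 CPM in KO, above the WT range of 1.79 to 3.22, a difference of 2.58 log2 (adjusted p 7.32e-04, SE 0.42). KCNH8, an ELK channel, was higher by 2.80 log2 (adjusted p 9.40e-05, SE 0.34), at 21.2 ± 8.55 CPM in KO and 3.02 ± 0.869 in WT. KCNH1 and KCNH3 did not pass.

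Of 11 Shaker, Shaw and Shal genes tested, 5 were higher and none lower. KCNC2 read 0.111, 0.180, 0.239 and 0.132 CPM in WT, 1.23, 2.17, 1.63 and 0.370 in HET and 3.38, 2.91, 2.43 and 2.52 in KO. Groups did not overlap between WT and either mutant. The difference was the largest among members with a mean of at least 1 CPM, 4.05 log2 (adjusted p 7.69e-05, SE 0.48) in KO and 3.03 log2 (adjusted p 0.00227, SE 0.47) in HET. KCNA2 read 2.67, 3.64, 3.52 and 1.76 CPM in WT and 23.9, 22.2, 14.7 and 6.87 in KO, a difference of 2.52 log2 (adjusted p 7.32e-04, SE 0.41). KCND2 was higher by 2.86 log2 (adjusted p 0.00980, SE 0.69) but at a mean of only 0.446 ± 0.0765 CPM. KCNC2 and KCND2 had at most 10 and 5 counts in a WT library. They entered the test largely through the mutant libraries, where they were high, so the count filter set part of the number called. KCNC1 (0.51 log2, adjusted p 0.230) and KCND3 (1.39 log2, adjusted p 0.0593) did not pass. Replicate numbers paired KO with WT at this day too, and with the number as a block KCNC1 passed at 0.52 log2 (adjusted p 0.0277 with the block) and KCND3 at 1.39 log2 (adjusted p 0.00242 with the block).

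Of 11 inward rectifiers tested, 4 were higher and 1 lower in KO. KCNJ6 read 66.6, 87.4, 85.3 and 37.3 CPM in WT, 158, 189, 206 and 78.5 in HET and 299, 313, 256 and 219.5 in KO. KO was above both other genotypes in every library and exceeded WT by 1.96 log2 (adjusted p 6.12e-04, SE 0.31), while HET overlapped WT and differed by 1.20 log2 (adjusted p 0.0467, SE 0.30). Other GIRK genes were higher in KO as well: KCNJ3 by 2.46 log2 (adjusted p 0.00165, SE 0.45) and KCNJ9 (GIRK3) by 3.03 log2 (adjusted p 1.06e-04, SE 0.38). KCNJ2, a strong inward rectifier, was lower with a difference of -1.69 log2 (adjusted p 0.0218, SE 0.47) from a low level (1.00 ± 0.305 CPM in WT), a call lost without KO replicate 1 or 3 or WT replicate 1 or 4 (adjusted p up to 0.0645).

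Two-pore genes split evenly, with 2 higher and 2 lower of 8. KCNK10 read 0.221, 0.225, 0.0478 and 0.0526 CPM in WT and 1.51, 2.87, 2.07 and 0.741 in KO, a difference of 3.62 log2 (adjusted p 0.00302, SE 0.72), and KCNK3 was higher by 1.08 log2 (adjusted p 0.00518, SE 0.23). With at most 12 counts in a WT library, KCNK10 too entered the test largely through the mutant libraries. KCNK5 read 17.3, 9.79, 9.33 and 16.5 CPM in WT, 6.08, 5.38, 3.52 and 10.0 in HET and 1.75, 3.60, 2.27 and 4.99 in KO. KO was below WT in every library, with a difference of -2.09 log2 (adjusted p 0.00193, SE 0.39), and HET overlapped WT (-1.06 log2, adjusted p 0.181). With the replicate number as a block, which paired HET with WT at this day, the HET difference passed at -1.13 log2 (adjusted p 0.0149 with the block). In KO, KCNK2 (1.735 log2, adjusted p 0.080) passed only with the block, at 1.69 log2 (adjusted p 0.0163 with the block). KCNK2 had at most 9 counts in a WT library. KCNK6 was lower with a difference of -0.69 log2 (adjusted p 0.0306, SE 0.21), a call lost without KO replicate 1, 3 or 4 or WT replicate 1 or 4 (adjusted p up to 0.116). Silent subunits KCNG1 and KCNF1 were lower with a difference of -1.76 log2 (adjusted p 0.00427, SE 0.37) and -1.47 log2 (adjusted p 0.0236, SE 0.42), the latter call being lost without KO replicate 3 or 4 or WT replicate 1 or 2 (adjusted p up to 0.0770), whereas the silent subunit KCNG2 was higher by 2.77 log2 (adjusted p 4.97e-05, SE 0.31). KCNT2 was higher by 0.93 log2 (adjusted p 0.0172, SE 0.25), a call lost without KO replicate 1 or WT replicate 4 (adjusted p up to 0.0611). KCNMA1 (0.89 log2, adjusted p 0.0474, SE 0.30) passed but lost its call without KO replicate 1, 2 or 3 or WT replicate 1, 2, 3 or 4 (adjusted p up to 0.150), and KCNS3 (0.83 log2, adjusted p 0.0286, SE 0.25) without KO replicate 4 or WT replicate 1, 2 or 3 (adjusted p up to 0.0850). On TPM with limma, 6 members were called, all higher, and the median of all genes moved to 0.20 log2.

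In HET at day 3, 6 of 56 members were higher and none lower (10.7%, where 3.28% of all genes were called). Beside KCNC2, KCNQ3, KCNH2 and KCNJ6, these were the Shaker gene KCNA4, by 1.46 log2 (adjusted p 0.0185, SE 0.31), and KCNG2, by 1.20 log2 (adjusted p 0.0480, SE 0.30). HET and WT replicates also paired by number here under the rule used, but the same-numbered WT library was the best match for only 2 of 4 HET replicates. With the number as a block 19 members were called, 16 higher and 3 lower. The share of all genes called with the block is not given here, so the gain cannot be read as particular to channels. The 13 gained included KCNH7 (1.32 log2, adjusted p 0.0109 with the block), KCNH8 (1.29 log2, adjusted p 0.0119 with the block), KCNA2 (0.92 log2, adjusted p 0.0148 with the block), KCNJ3 (1.27 log2, adjusted p 0.0294 with the block) and KCNK10 (1.99 log2, adjusted p 0.0270 with the block), while the 3 lower ones were KCNK5, KCNF1 (-1.71 log2, adjusted p 0.00681 with the block) and KCNG1 (-1.22 log2, adjusted p 0.0439 with the block). Single libraries weighed on the unblocked count of 6. It was 14 without HET replicate 4 and 3 without WT replicate 1. HET replicate 4 was the library in which KCNA2, KCNC2, KCNQ3 and KCNK10 were lowest in the group. The KCNJ6 call was lost without HET replicate 1, 2 or 3 or WT replicate 1, 2, 3 or 4 (adjusted p up to 0.158), and the KCNA4 call without HET replicate 2 or WT replicate 1, 3 or 4 (adjusted p up to 0.0606).

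**Figure D3:**
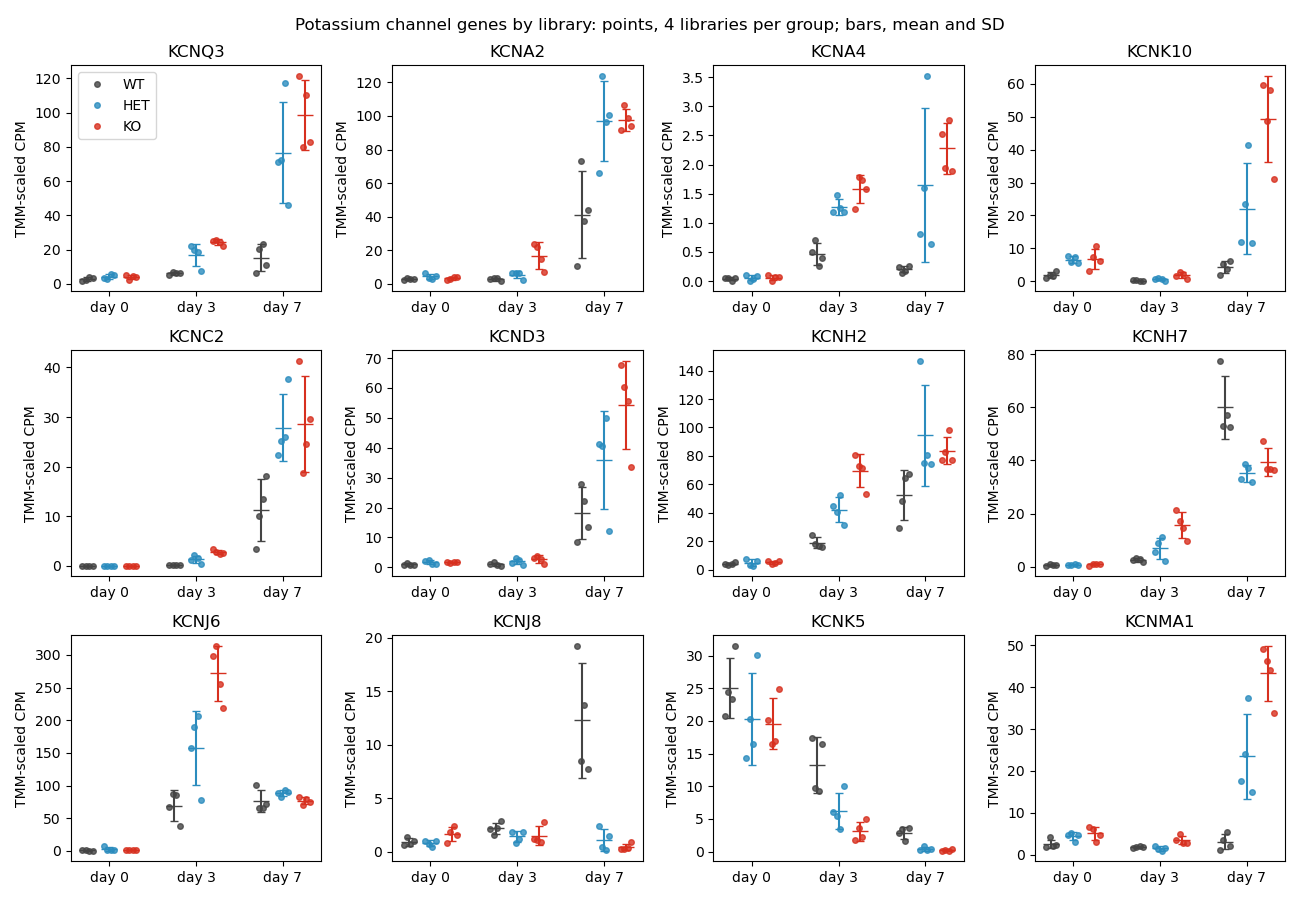
CPM of 12 members by library (points), with the mean and 1 SD over 4 libraries as bars, at days 0, 3 and 7 for WT (dark grey), HET (blue) and KO (red). Each panel has its own vertical axis. KCNH2 and KCNJ6 separate KO from WT at day 3, KCNQ3, KCNK10 and KCNMA1 separate them at day 7, and KCNJ8 and KCNK5 are lower in both mutants at day 7.

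By day 7, 39 of 63 tested members differed between KO and WT, 26 higher and 13 lower (61.9%, where 32.6% of all 21714 genes were called, 17.0% higher and 15.6% lower). Medians were 0.53 log2 over members and -0.04 over all genes. In HET, 24 of 63 were called, 17 higher and 7 lower (38.1%, where 14.4% of all genes were called, 8.31% higher and 6.1% lower). Neuronal markers summed to 7236 to 14540 CPM in WT, 15850 to 21260 in HET and 18310 to 24770 in KO, with 7 of 12 called higher in each mutant. All 8 proliferation markers were lower in each mutant, and they summed to 36.3 to 238.9 CPM in WT, 12 to 31.4 in HET and 12.8 to 16.3 in KO. Mesenchymal markers (6 genes, such as COL1A1 and PDGFRB) summed to 39.4 to 58.5 CPM in WT, 6.22 to 40.7 in HET and 4.99 to 6.76 in KO, with 3 of 3 tested called lower in KO and 1 of 3 in HET. Astrocyte markers summed to 75.3 to 95.7 CPM in WT, 181.7 to 391.6 in HET and 285.4 to 393.3 in KO, with 2 of 3 tested called higher in KO and 1 of 3 in HET. Markers of peripheral or sensory neurons summed to 239.7 to 509.2 CPM in WT, 448.3 to 1217 in HET and 544.3 to 974.7 in KO, with 3 of 6 called higher and 1 lower in KO and 2 higher in HET. Pluripotency markers, at a small share of their day 0 level, summed to 69.6 to 107.4 CPM in WT, 105.1 to 200.7 in HET and 291.0 to 354.7 in KO, with 2 of 3 tested called higher and 1 lower in KO and 1 higher in HET. The part of these markers in the channel differences was not tested.

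Calcium-activated and two-pore channels held several of the largest differences at day 7. KCNMA1, the large-conductance BK channel, read 1.15, 3.59, 5.39 and 2.12 CPM in WT, 17.5, 24, 37.6 and 15 in HET and 49.2, 46.2, 44.1 and 34 in KO. Groups did not overlap between WT and either mutant, with differences of 3.83 log2 (adjusted p 6.95e-05, SE 0.43) in KO and 2.94 log2 (adjusted p 9.61e-04, SE 0.41) in HET. KCNK10 read 1.79, 5.27, 3.82 and 6.16 in WT, 12, 23.4, 41.4 and 11.5 in HET and 59.7, 48.6, 58.2 and 31.1 in KO, again without overlap with WT. It was higher by 3.53 log2 (adjusted p 2.03e-04, SE 0.47) in KO and 2.36 log2 (adjusted p 0.00477, SE 0.45) in HET. KCNK9 (TASK3), a leak channel, read 0.151, 0.736, 1.25 and 1.57 in WT, 4.07, 7.44, 8.94 and 7.35 in HET and 15.3, 15.0, 28.0 and 15.3 in KO. Those differences were 4.30 log2 (adjusted p 1.05e-04, SE 0.52) and 2.89 log2 (adjusted p 0.00275, SE 0.49). KCNN3, a small-conductance calcium-activated channel, was higher in KO by 1.55 log2 (adjusted p 0.0238, SE 0.47), with 8.15, 23.4, 14.2 and 11.6 CPM in WT and 44.1, 47, 46.5 and 30.9 in KO. Its call was lost without KO replicate 1, 2 or 3 or WT replicate 1, 3 or 4 (adjusted p up to 0.0681), and HET overlapped WT (0.27 log2, adjusted p 0.746).

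Shaker and Shal genes were higher in KO at day 7 in 8 of 10 tested cases. The exceptions were KCNA7, which was lower, and KCND1, which did not pass. KCNA1, KCNA4, KCNA5 and KCND2 had at most 7, 11, 5 and 10 counts in a WT library. They entered the test largely through the mutant libraries, where they were high. KCNA7, with at most 4 counts in a KO library, entered largely through WT. The count filter therefore set part of this count, and 7 Shaker genes were tested at day 7 against 4 at day 3. KCND2 had the largest difference, 4.32 log2 (adjusted p 3.33e-04, SE 0.62), with 0.121, 0.190, 0.296 and 0.208 CPM in WT and 5.24, 4.75, 4.14 and 2.39 in KO. In HET it read 0.311, 1.90, 3.85 and 2.13 and was higher by 3.30 log2 (adjusted p 0.00407, SE 0.61). KCND3 was higher in KO by 1.59 log2 (adjusted p 0.0126, SE 0.42), while the HET difference of 0.99 log2 (adjusted p 0.134) did not pass. KCNA2 spread widely in WT (10.4, 73, 37.5 and 44.3 CPM) and narrowly in KO (91.5, 106, 98.8 and 94). The difference of 1.24 log2 (adjusted p 0.0322, SE 0.40) was lost without KO replicate 1, 2, 3 or 4 or WT replicate 3 or 4 (adjusted p up to 0.0782). KCNA4 was higher in both mutants, by 3.46 log2 in KO and 3.00 log2 in HET, at means of 2.28 ± 0.434 and 1.64 ± 1.32 CPM. KCNA1, a Shaker channel of axons, and KCNA3 were higher in KO by 2.79 and 0.77 log2, calls lost without KO replicate 3 (adjusted p up to 0.05001) and without KO replicate 1 or 3 or WT replicate 1 or 4 (adjusted p up to 0.102). In the Shaw class KCNC2 was higher in KO by 1.35 log2 (adjusted p 0.0200, SE 0.40), a call lost without KO replicate 1 or WT replicate 2 (adjusted p up to 0.0735), and in HET by 1.3 log2 (adjusted p 0.0434, SE 0.40), a call lost without HET replicate 2, 3 or 4 or WT replicate 2 or 3 (adjusted p up to 0.105). KCNC1 was higher in KO by 0.72 log2, a call lost without KO replicate 1, 2 or 3 or WT replicate 3 (adjusted p up to 0.0693). KCNC4, a Shaw-type channel of the A-type kind, went the other way. It read 54.8, 49.8, 54.9 and 38 CPM in WT, 34, 14.3, 13.6 and 21 in HET and 15.5, 14.6, 23 and 23.6 in KO, with every mutant library below every WT library. KCNC4 was lower with a difference of -1.36 log2 (adjusted p 0.00309, SE 0.28) in KO and -1.26 log2 (adjusted p 0.0108, SE 0.28) in HET.

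KCNQ3 was again higher in both mutants at day 7. It read 6.45, 20.7, 23.4 and 10.9 CPM in WT, 71.2, 72.4, 117 and 46 in HET and 122, 80.2, 110.0 and 82.7 in KO. Both mutants lay above all WT libraries, KO by 2.69 log2 (adjusted p 3.31e-04, SE 0.39) and HET by 2.32 log2 (adjusted p 0.00224, SE 0.38).

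Of the GIRK genes, KCNJ9 and KCNJ5 passed at day 7. KCNJ6 read 101, 64.9, 65.8 and 72 CPM in WT and 82.1, 69.5, 80.0 and 74.7 in KO (0.01 log2, adjusted p 0.956), and KCNJ3 read 10.6 to 15.9 CPM in WT and 7.71 to 20.6 in KO (-0.07 log2, adjusted p 0.877), so neither passed. KCNJ9 was higher in both mutants, by 2.26 log2 (adjusted p 0.00190, SE 0.44) in KO and 1.99 log2 (adjusted p 0.00913, SE 0.43) in HET. KCNJ5 (GIRK4) went from a mean of 0.341 ± 0.0753 CPM in WT to 5.90 ± 1.99 in KO, a difference of 4.09 log2 (adjusted p 0.00116, SE 0.73). In HET KCNJ5 was higher by 3.07 log2 (adjusted p 0.0120, SE 0.71), although replicate 1 (0.181 CPM) lay below every WT library.

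The members lower in both mutants at day 7 included a further inward rectifier and a leak channel. KCNJ8, the Kir6.1 pore of ATP-sensitive channels, read 19.3, 8.45, 13.7 and 7.71 CPM in WT, 2.38, 0.407, 0.147 and 1.45 in HET and 0.231, 0.298, 0.356 and 0.882 in KO. Every mutant library was below every WT library, and the differences were -4.80 log2 (adjusted p 5.05e-04, SE 0.74) in KO and -3.50 log2 (adjusted p 0.00543, SE 0.69) in HET. ABCC9, which encodes the SUR2 subunit that joins Kir6.1, was lower as well, at 126 ± 10.2 CPM in WT, 24.8 ± 9.62 in HET and 3.94 ± 2.15 in KO (-4.99 log2, adjusted p 1.22e-05, SE 0.44 in KO). Kir6.1 and SUR2 are known from vascular mural cells. PDGFRB and the COL1A genes, which such cells express, belong to the mesenchymal markers given above. Their sum in WT was 249.0 to 604.9 CPM at day 3 and 39.4 to 58.5 CPM at day 7. Over these days KCNJ8 and ABCC9 were called higher in WT, with ABCC9 at 17.85 ± 7.94 and 126 ± 10.2 CPM. The part of these markers in the KCNJ8 and ABCC9 differences was not tested. KCNK5 read 2.85, 3.42, 1.66 and 3.60 CPM in WT, 0.181, 0.787, 0.245 and 0.442 in HET and 0.128, 0.224, 0.165 and 0.472 in KO, differences of -3.55 log2 (adjusted p 3.93e-04, SE 0.52) and -2.81 log2 (adjusted p 0.00340, SE 0.50). KCNK6 was lower in KO with a difference of -2.15 log2 (adjusted p 0.00153, SE 0.40). KCNH6, an ERG channel, was lower with a difference of -1.95 log2 (adjusted p 0.00317, SE 0.41) in KO and -1.71 log2 (adjusted p 0.0139, SE 0.41) in HET, the latter call being lost without HET replicate 3 (adjusted p up to 0.0508). KCNH7, which had been higher in KO at day 3, read 77.5, 52.8, 57.2 and 52.4 CPM in WT, 33.1, 38.6, 37.1 and 31.7 in HET and 47.4, 36.9, 36.9 and 36.5 in KO. It was lower in KO with a difference of -0.61 log2 (adjusted p 0.0106, SE 0.16) and in HET with a difference of -0.78 log2 (adjusted p 0.00631, SE 0.16), but on log2(TPM + 1) the HET difference read 0.09. KCNJ12, lower with a difference of -1.03 log2 in KO and -1.31 in HET, is nearly identical in sequence to KCNJ18, so its reads may be divided and its values are uncertain.

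Counts at day 7 depended on the scale and on single libraries. On TPM with limma 5 members were called in KO (4 higher, 1 lower) and 2 in HET (1 higher, 1 lower), with the median of all genes at 0.16 and 0.42 log2. Leaving out 1 library gave 29 to 37 calls in KO and 17 to 28 in HET, lowest without HET replicate 3. A fit with a covariate for the share of small structural RNAs called 15 in HET, and the share of all genes called by that fit is not given here.

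**Figure D4:**
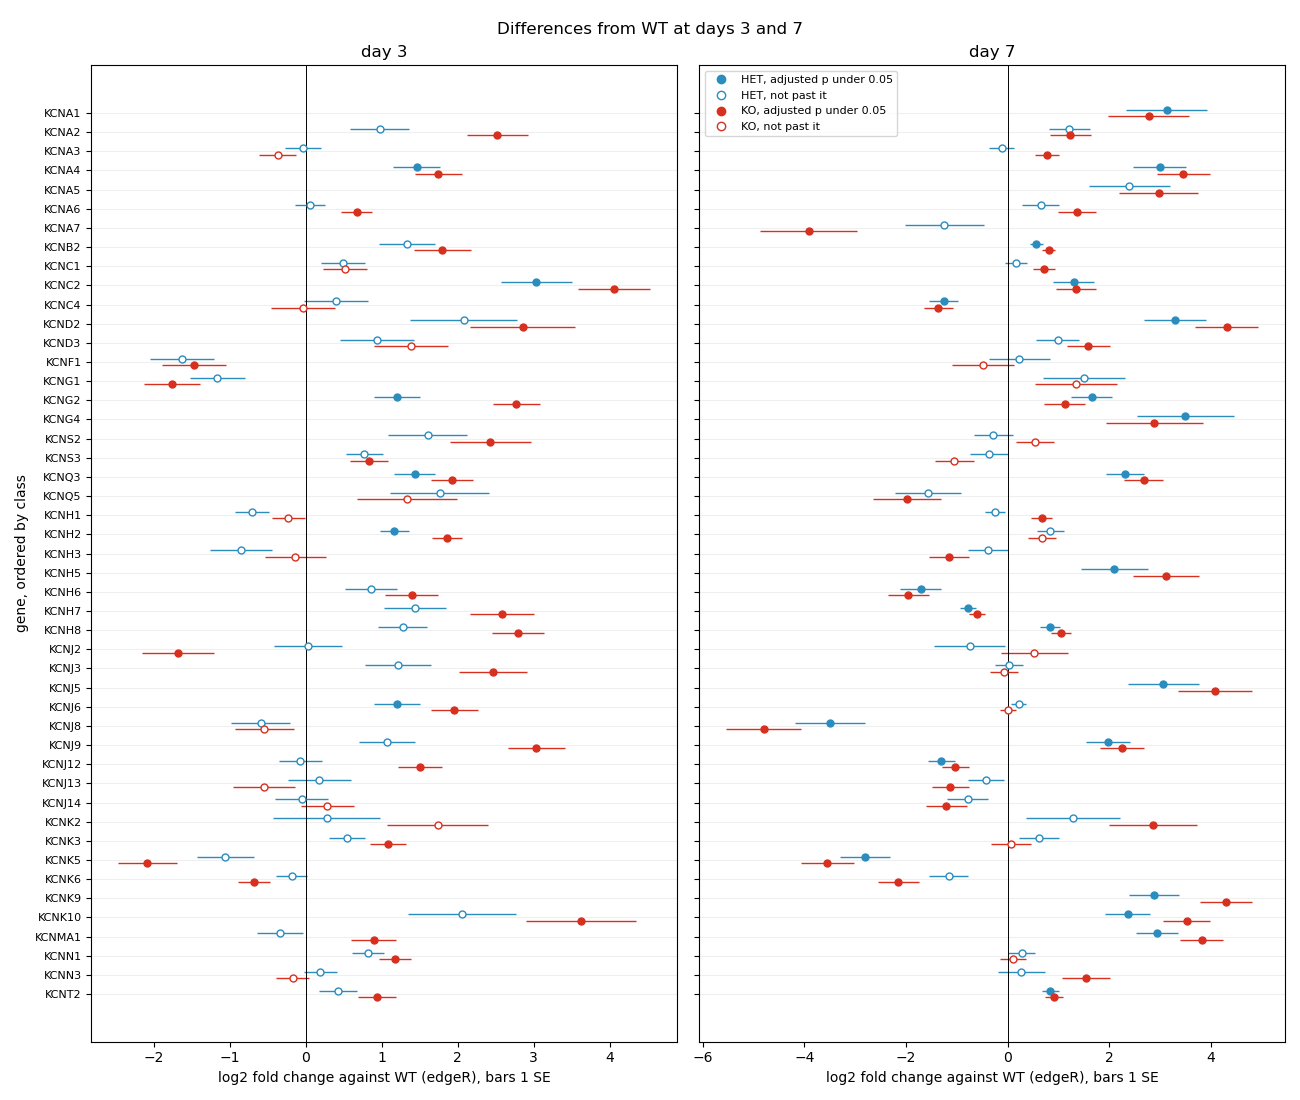
Log2 fold change against WT (horizontal axis, bars 1 SE) of members called in KO (red) or HET (blue) at day 3 (left) or day 7 (right), ordered by class. Filled points passed an adjusted p of 0.05 and open points did not. At day 3 most filled points are KO and lie to the right of 0, and at day 7 filled HET points join them, with KCNJ8 and KCNK5 far to the left in both genotypes.

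**Figure D5:**
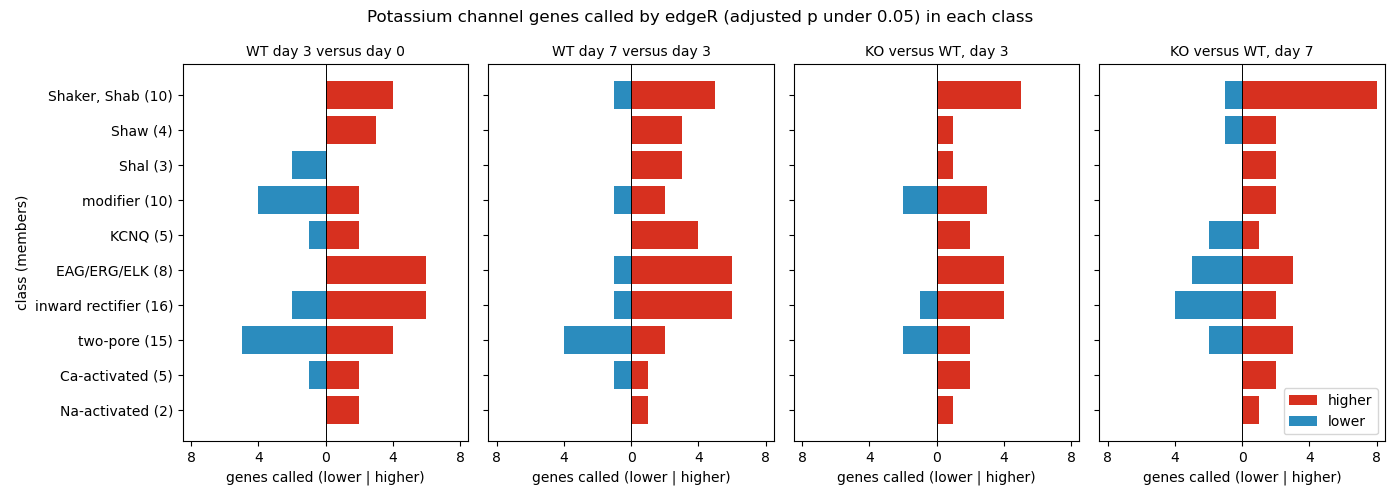
Members called higher (red, right of 0) or lower (blue, left of 0) in each channel class, for WT day 3 against day 0, WT day 7 against day 3, and KO against WT at days 3 and 7. In brackets stands the number of members in the class. Shaker and Shab genes, drawn together, go from 5 higher in KO at day 3 to 8 higher and 1 lower at day 7, and KCNH genes from 4 higher to 3 higher and 3 lower. Of the Shaker genes, 4 were tested at day 3 and 7 at day 7, and of the KCNH genes 6 and 8.

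KO and HET were also compared directly. At day 3, 6 of 56 members were higher in KO than in HET and none lower (10.7%, where 4.35% of all genes were called). These were KCNJ9 by 1.97 log2 (adjusted p 0.00821, SE 0.36), KCNJ12 by 1.58 log2, KCNG2 by 1.57 log2 (adjusted p 0.00961, SE 0.29), KCNA2 by 1.55 log2 (adjusted p 0.0407, SE 0.39), KCNH8 by 1.52 log2 (adjusted p 0.0197, SE 0.32) and KCNMA1 by 1.24 log2 (adjusted p 0.0351, SE 0.30). KCNJ9 read 0.665, 0.897, 1.07 and 0.605 CPM in HET and 4.57, 3.82, 2.69 and 1.95 in KO, and KCNH8 5.52, 7.92, 10.8 and 4.67 and 34, 17, 16.4 and 17.4, so both were separated in every library. Calls were lost for KCNA2 without HET replicate 1, 2, 3 or 4 or KO replicate 1, 2 or 3 (adjusted p up to 0.138), for KCNH8 without HET replicate 1 or KO replicate 1 (adjusted p up to 0.0794) and for KCNMA1 without HET replicate 2 or 3 or KO replicate 1 or 2 (adjusted p up to 0.102). At day 7, 1 of 63 members differed (1.4% of all genes were called, 0.668% higher): KCNH1 was higher in KO by 0.92 log2 (adjusted p 0.0452, SE 0.21), a call lost without HET replicate 1, 2 or 4 or KO replicate 1, 2 or 3 (adjusted p up to 0.183). A fit that adds the share of small structural RNAs as a covariate called 12 members there, and the share of all genes called by that fit is not given here. An unadjusted edgeR p under 0.05 was reached by 12 of the 63 and by 3008 of all 21714 genes. KCNK9, with HET and KO libraries that did not overlap, differed by 1.41 log2 (adjusted p 0.174), and KCNMA1 by 0.89 log2 (adjusted p 0.326), which did not pass.

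Whether KO changed the course over time was tested as an interaction over all 36 libraries. From day 0 to day 3, 12 of 69 members changed differently in KO and WT, 11 with a more positive change in KO and 1 with a more negative one (17.4%, where 8.55% of all 24764 genes were called, 3.19% with a more negative change). The largest were KCNJ9 (3.20 log2, adjusted p 0.00164, SE 0.64), KCNG2 (2.97 log2, adjusted p 0.00112, SE 0.57), KCNH8 (2.69 log2, adjusted p 1.26e-05, SE 0.36), KCNA2 (2.40 log2, adjusted p 0.00554, SE 0.55) and KCNS2 (2.24 log2, adjusted p 0.0302, SE 0.66), a silent subunit. The KCNS2 call was lost without KO day 0 replicate 3 or 4 or KO day 3 replicate 1 or 2 or WT day 0 replicate 2 or 3 or WT day 3 replicate 1 or 4 (adjusted p up to 0.0967). KCNA2 did not pass in WT between days 0 and 3 (-0.08 log2, adjusted p 0.879). KCNK5 changed by -1.71 log2 (adjusted p 0.0282, SE 0.50) relative to WT, a call lost without KO day 0 replicate 4 or KO day 3 replicate 1 or 3 or WT day 0 replicate 1 or 3 or WT day 3 replicate 1 or 4 (adjusted p up to 0.0710). From day 3 to day 7, 23 of 69 differed, 5 more positive and 18 more negative in KO (33.3%, where 18.5% of all genes were called, 7.6% with a more positive change). KCNH7 (-3.21 log2, adjusted p 1.81e-05, SE 0.50), KCNJ8 (-4.27 log2, adjusted p 1.07e-04, SE 0.76), KCNH6 (-3.36 log2, adjusted p 4.05e-05, SE 0.55), KCNC2 (-2.73 log2, adjusted p 0.00123, SE 0.59) KCNJ3 (-2.55 log2, adjusted p 4.00e-04, SE 0.50) and KCNJ12 (-2.55 log2) had the more negative change in KO. KCNMA1 (2.90 log2, adjusted p 6.60e-05, SE 0.49), KCNG1 (3.08 log2, adjusted p 0.00577, SE 0.80) KCNN3 (1.70 log2, adjusted p 0.0186, SE 0.52), KCNS1 (2.60 log2, adjusted p 0.00887, SE 0.71) and KCNA3 (1.12 log2, adjusted p 0.0129, SE 0.33) had the more positive change in KO. For KCNH7 the WT course ran from 2.58 ± 0.622 to 60.0 ± 11.9 CPM and the KO course from 15.7 ± 4.97 to 39.4 ± 5.33. For KCNMA1 the WT course ran from 1.87 ± 0.184 to 3.06 ± 1.85 CPM and the KO course from 3.53 ± 1.01 to 43.4 ± 6.60. On log2(TPM + 1) the KCNC2 interaction read 0.71, the opposite direction, and 3 of 7 called members were more positive. Because both interactions use the day 3 libraries, a high day 3 level in KO enters them with opposite signs.

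Auxiliary subunits do not form pores but set the surface level, gating or inactivation of the channels above. Of 25 such genes, 20 were tested at day 3, where 7 were higher and 4 lower in KO (21.6% of all genes were called). DPP6 and KCNIP4, partners of Shal channels, were higher by 3.24 log2 (adjusted p 5.23e-04, SE 0.50) and 2.89 log2 (adjusted p 0.00329, SE 0.58), and KCNE5, an inhibitory partner of KCNQ1, was lower with a difference of -3.03 log2 (adjusted p 6.17e-06, SE 0.26). The 4 WT libraries averaged 97.5 ± 12.6 CPM of KCNE5 (SD), the HET libraries 36.8 ± 6.83 and the KO libraries 12.1 ± 4.33. In HET at day 3, 2 were higher and 1 lower (3.28% of all genes were called), with KCNE5 changed by -1.39 log2 (adjusted p 0.00555, SE 0.24). At day 7, 8 of 19 were higher and 4 lower in KO (32.6% of all genes), and 3 higher and 2 lower in HET (14.4% of all genes). KCNAB2, a beta subunit of Shaker channels, was higher by 1.94 log2 (adjusted p 2.12e-04, SE 0.26) in KO and 1.27 log2 (adjusted p 0.00617, SE 0.26) in HET. KCNIP1, a further Shal partner, was higher by 4.91 log2 (adjusted p 0.00252, SE 0.99) in KO, at 25.3 ± 13.6 CPM against 0.823 ± 0.642 in WT. Shal partners did not all rise. KCNIP3, of the same family, was among those called lower in KO, at 17.3 ± 8.47 CPM in WT, 6.15 ± 7.10 in HET and 1.90 ± 0.418 in KO. At day 0, DPP6 was higher and KCNE3 lower of 18 tested in KO (2.08% of all genes), and KCNMB4 was lower in HET (1.63% of all genes).

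The small-conductance channel genes and KCNK2 (TREK1) completed the fixed set. KCNN4, an intermediate-conductance channel, was 0.0758 ± 0.0708 CPM in WT and 0.0659 ± 0.0302 in KO at day 7 (SD, n = 4). KO exceeded WT in KCNK2 at day 7, by 2.86 log2 (adjusted p 0.0222, SE 0.86), at 0.448 ± 0.321 CPM, a call lost without KO replicate 1 or WT replicate 1 or 2 (adjusted p up to 0.0850). KCNK2 had 1, 1, 3 and 4 counts in the WT libraries and 34, 12, 18 and 4 in those of KO. It therefore entered the test largely through the KO libraries, where it was high. KCNT1 differed in KO by 0.05 log2 (adjusted p 0.939) at day 3 and 0.88 log2 (adjusted p 0.0802) at day 7 and did not pass.

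GENCODE 29 places another gene over 45 of the 79 and an antisense gene over 35, KCNMA1, KCNH7 and KCNC2 among them. Use of strand in counting is not given in the sources used here, so reads of such partners cannot be told apart.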

How the data were processed

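Ribosomal RNA-depleted total RNA of 36 libraries was sequenced as 151 bp paired reads. Per the submitters' processing notes, the tools were cutadapt 4.8, FastQC 0.11.8, MultiQC 1.20, STAR 2.7.8a and RSEM 1.3.3 with GRCh38. The annotation and strand setting are not given in the sources used here. The authors deposited RSEM expected counts, already whole numbers, and TPM values per gene. FPKM values were not used.

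Of 62714 rows, 4 reporter rows (at most 0.0171% of a library) were left out. Counts were scaled by TMM, filtered with filterByExpr and tested with edgeR 4.0.16 (quasi-likelihood F test, Benjamini-Hochberg over all genes tested, threshold 0.05) in R 4.3.3. Genotype fits used the 12 libraries of a day, the WT course the 12 WT libraries, and interactions all 36. Python 3.11.15 and matplotlib 3.10.9 drew the figures. Alternatives were DESeq2 1.42.0, its size factors within edgeR, library size alone, limma 3.58.1 on log2(TPM + 1) or log2(TPM + 0.1) for genes of mean TPM of at least 0.1, no filter, a replicate block, a covariate for the small structural RNA share, and leaving out each replicate. The fits were tested on simulated data. For KO against WT at day 3, edgeR recovered 34.1% of changes of 1 log2 and 88.7% of 2 log2, with 2.2% of calls false. DESeq2 recovered 52.9% and 95.7%, with 19.3% of calls false. In the interaction from day 0 to 3, edgeR recovered 16.7% and 71.2%, with 4.3% of calls false. All libraries carry 1 batch label.

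Same-numbered replicates were paired where all 4 correlations of their deviations over 15803 genes exceeded 0.1, which held for KO and WT at day 0 (0.299 to 0.701) and day 3 (0.126 to 0.596) and for HET and WT at day 3 (0.170 to 0.798). In that order, the same-numbered WT library correlated best with 4, 3 and 2 of the 4 mutant replicates. The labels name no pairing. In these 3 comparisons the blocked value stands beside a result whose call or count it changed, and other blocked counts stand in the closing section.

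Named genes were 30 members fixed by role, up to 5 rises and 5 falls per comparison among members called with at least 1 CPM in the higher group, and the 5 members of highest TPM in WT at each day. Some members under this rule are not reported here and are not drawn one by one, though counts over members and classes include them. Other members named beside these were chosen after their values were seen. Members and lists were chosen with earlier results of these data known.

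Positions came from GENCODE 29, which held all 79 members, and promoter windows from RefSeq. Intervals and floors cover counting error only.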

Additional observations from a re-analysis of the deposited data

Results flagged for a closer look

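In 8 of 144 groups of 4 libraries, over 16 genes, 1 library stood far from the other 3, where chance alone gives about 5% of groups (7.2). KCNH2 read 5.11 CPM in WT day 0 replicate 4 against 3.57 to 3.77 in the others. In HET day 7 replicate 1, the library with the largest small structural RNA share, KCNH2 read 147 CPM against 74.5 to 81.0. KCNA2 read 2.59 in HET day 3 replicate 4 against 6.55 to 6.70. KCNH7 read 47.4 in KO day 7 replicate 1 against 36.5 to 36.9. KCNJ3 read 0.384 in HET day 0 replicate 3 against 0.134 to 0.159, and KCNJ6 read 6.70 in HET day 0 replicate 1 against 0.822 to 1.38. KCNJ8 read 2.82 in KO day 3 replicate 4 against 0.951 to 1.20, and KCNK9 read 28.0 in KO day 7 replicate 3 against 15.0 to 15.3.

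The change from day 0 to day 3 differed between KO and WT, by an interaction term in edgeR, for KCNJ9 (3.20 log2), KCNG2 (2.97), KCNH8 (2.69), KCNA2 (2.40), KCNS2 (2.24) and KCNK5 (-1.71). The change from day 3 to day 7 differed for KCNG1 (3.08 log2), KCNMA1 (2.90), KCNS1 (2.60), KCNN3 (1.70), KCNA3 (1.13), KCNJ8 (-4.27), KCNH6 (-3.36), KCNH7 (-3.21), KCNC2 (-2.73) and KCNJ12 (-2.55).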

How the results depend on the processing

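Of 138 called differences of named members, 49 stayed past the threshold in the same direction under every alternative tried, and 105 without each replicate in turn. None lost its call under DESeq2, which made more false calls than edgeR in simulated data of day 3 (19.3% against 2.2%). None lost it under DESeq2 size factors in edgeR or the replicate block. Lost calls numbered 8 under library size alone, 4 without the filter and 19 with the small structural RNA covariate. Under limma they numbered 78 on log2(TPM + 1) and 66 on log2(TPM + 0.1). The cause was not tested. Reversed on those 2 TPM scales were KCNH7 in HET at day 7 (0.091 and 0.056 log2), the KCNC2 interaction from day 3 to 7 (0.71 and 0.073) and KCNT2 in WT from day 0 to 3 (-0.19 and -0.27). The share of all genes called under each alternative is not given here, so moves in the counts cannot be read as particular to channels. Counts of called members moved by more than 1.5 times as follows. With limma on TPM, KO against WT gave 0, 6 and 5 at days 0, 3 and 7, HET against WT 0, 0 and 2, KO against HET 0, 0 and 0, WT from day 3 to 7 gave 22, and the interactions gave 2 and 7. With DESeq2, KO against WT at day 0 gave 6, HET against WT 3 at day 0 and 14 at day 3, and KO against HET 12 at day 3 and 3 at day 7. With the replicate block, the same comparisons gave 5, 3, 19, 17 and 2. In the 3 paired comparisons the block added calls of 3, 3 and 13 members to KO at days 0 and 3 and HET at day 3. With the covariate, HET against WT at day 7 gave 15, KO against HET at day 7 gave 12 and WT from day 0 to 3 gave 30. Without the filter HET at day 0 gave 2, and with library size alone KO against HET at day 7 gave 0. Beside these zeros, edgeR gave 12, 12, 26, 4, 21 and 12 members with an unadjusted p under 0.05 for KO and HET at day 0, HET at day 3, and KO against HET at days 0, 3 and 7. Over all genes the counts in that order were 2544, 2372, 3046, 1175, 3901 and 3008. Members tested were 55, 56 and 63 at days 0, 3 and 7, and all genes tested 20437, 21563 and 21714. Leaving out 1 library gave 0 to 3, 24 to 30 and 29 to 37 calls in KO at days 0, 3 and 7, 0 to 1, 3 to 14 and 17 to 28 in HET, 0 to 1, 3 to 8 and 0 to 2 for KO against HET, 46 to 47 and 39 to 47 in the WT course, and 7 to 14 and 19 to 25 in the interactions. The lowest count at day 0 came without WT replicate 1 in KO and HET, and without HET replicate 2 between KO and HET. At day 3 KO against HET fell to 3 without KO replicate 1, and at day 7 to 0 without HET replicate 1, while the first interaction fell to 7 without WT day 3 replicate 4. Members at a few counts per library could not be tested, and low members have wide errors.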
